A study of Mus musculus with 36 samples.

Results

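The response of striatal microglia to activation of neighbouring neurons was set against the response of the RNA around them, gene by gene. The 12 libraries used, of 36 samples in the series, are all of those from mice that carry Camk2a-tTA and TetO-Chrm3 together with Cx3cr1CreErt2/+(Litt) and Eef1a1LSL.eGFPL10a/+. The first pair places a designer receptor, Chrm3, which clozapine-N-oxide (CNO) activates, in forebrain neurons. The other pair places the ribosomal protein L10a, fused to enhanced green fluorescent protein, in cells that express Cx3cr1, after tamoxifen at 4 to 6 weeks of age. Translating ribosome affinity purification (TRAP) collected the tagged ribosomes and their RNA, and the RNA left behind is the unbound fraction (UB). The 4 groups were TRAP from mice injected with CNO, TRAP from mice injected with saline, UB from mice injected with CNO and UB from mice injected with saline, each with 3 libraries and each taken 2 h after injection. All 4 carried the receptor and the tag, so none of them shows what CNO does without the receptor. Cx3cr1 is also expressed by other macrophages and by some blood cells, and the labels do not say whether animals were pooled or whether libraries of a group came from separate mice. The p-values below therefore measure the spread between these libraries.

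Neurons that fire strongly switch on immediate early genes, such as Fos and Npas4, within minutes, and Npas4 is known as a factor induced largely by calcium entry in neurons. Microglia can switch on many of the same early genes, and also chemokines such as Ccl3 and Ccl4, small secreted proteins that attract and activate immune cells. Chemokine genes are classic targets of NF-kB, a transcription factor held back by inhibitors such as Nfkbia. A pull-down of microglial ribosomes always carries some RNA of the surrounding tissue with it. A gene induced in neurons therefore appears to rise in the pull-down as well, and the question is which genes rose there by more than that.

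The stretches of 250 bases upstream of the transcription start are shown for a chemokine that rose in TRAP (Ccl3), an NF-kB inhibitor (Nfkbia) and a pair of early genes with large gains in UB (Fos, Nr4a1). They are RefSeq sequences of the build GRCm38.p6, written 5′ to 3′ in the direction of transcription. Capitals mark matches, on either strand, to the half-site TGACG of the cAMP response element or to the NF-kB site.
Ccl3, chr11:83649379-83649628, reverse strand: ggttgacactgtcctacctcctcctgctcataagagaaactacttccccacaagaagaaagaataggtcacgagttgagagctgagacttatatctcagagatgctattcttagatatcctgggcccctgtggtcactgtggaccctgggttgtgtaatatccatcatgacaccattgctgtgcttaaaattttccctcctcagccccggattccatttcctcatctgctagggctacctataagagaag
Nfkbia, chr12:55492648-55492897, reverse strand: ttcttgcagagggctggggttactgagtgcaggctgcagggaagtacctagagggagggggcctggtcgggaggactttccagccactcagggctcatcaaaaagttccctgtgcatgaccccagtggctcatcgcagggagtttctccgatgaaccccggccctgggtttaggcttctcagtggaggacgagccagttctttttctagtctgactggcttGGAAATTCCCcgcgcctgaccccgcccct
Fos, chr12:85473640-85473889, forward strand: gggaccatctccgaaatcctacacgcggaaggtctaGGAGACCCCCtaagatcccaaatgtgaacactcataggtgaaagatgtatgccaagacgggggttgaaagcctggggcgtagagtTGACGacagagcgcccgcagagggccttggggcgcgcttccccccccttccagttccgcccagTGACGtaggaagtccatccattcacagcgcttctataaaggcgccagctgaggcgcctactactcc
Nr4a1, chr15:101266596-101266845, forward strand: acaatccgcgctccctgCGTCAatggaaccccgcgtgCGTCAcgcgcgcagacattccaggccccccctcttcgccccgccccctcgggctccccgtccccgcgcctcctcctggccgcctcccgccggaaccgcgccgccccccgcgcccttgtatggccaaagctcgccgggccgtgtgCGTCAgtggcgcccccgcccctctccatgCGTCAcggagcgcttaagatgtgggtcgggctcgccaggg
The full element TGACGTCA, the half-site outside it, the AP-1 motif TGANTCA, the serum response CArG box and the NF-kB site were searched. Of 32851 RefSeq promoters, 1.55% held the full element in this window, 16.6% the half-site, 6.75% the AP-1 motif, 1.47% the CArG box and 7.25% the NF-kB site. The Ccl3 window held none of them. Nfkbia held an NF-kB site at position -29 from the start. Fos held half-sites at -129 and -66 and an NF-kB site at -214, and Nr4a1 held 4 half-sites, at -233, -213, -69 and -40. These matches describe the letters alone. No promoter sequence was at hand for Ccl2, Ccl4, Ccl7, Arc and Plxdc2, which are described below without one. The windows of Npas4, Fosb, Egr2, Inhba, Ier5 and Btg2 were also searched and are not shown.

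Values are the authors' RPKM, a read density that corrects for gene length and for library size. The numbers of reads behind them, recovered from the deposited values, ran from 12.1 to 107 M per library, an 8.87-fold range. Depth in M reads was 14.1, 107 and 19.3 in TRAP CNO and 96.2, 23.2 and 22.6 in TRAP saline, and 12.1, 83.2 and 97.1 in UB CNO and 75.7, 28.7 and 22.8 in UB saline. Microglial markers, 11 genes summed, reached 2450 to 3034 RPKM in TRAP CNO and 2057 to 3012 in TRAP saline. The same sum was 20.4 to 25 RPKM in UB CNO and 29.1 to 35.4 in UB saline, so markers of the labelled cell type were enriched in the pull-downs. In each fraction, CNO library 1 was the shallowest of its group and had the lowest Npas4 level of its group. Whether depth plays a part in that was not tested. Libraries are numbered here by their place within a group, and no pull-down can be matched to its own unbound RNA.

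Neuronal RNA was present in the pull-down at a fraction of its level in the unbound RNA. Over 27 pan-neuronal and spiny projection neuron markers with at least 5 RPKM in UB saline, the ratio of the TRAP to the UB mean had a median of 0.329 in CNO libraries and 0.351 in saline libraries. In saline the quartiles were 0.282 and 0.443. Snap25, a synaptic vesicle fusion protein, had a ratio of 0.201 in CNO and 0.216 in saline libraries. Ppp1r1b, the spiny neuron protein DARPP-32, had 0.167 in CNO and 0.187 in saline. The lowest ratio in saline was that of Mtap2, the dendritic protein MAP2, at 0.134. The neurofilament genes Nefl and Nefm stood above 1, at 2.30 and 1.39 in saline, so the share differed widely between neuronal genes. It also differed between libraries: the median was 0.306, 0.294 and 0.351 in the TRAP CNO libraries and 0.327, 0.252 and 0.438 in the TRAP saline libraries. The saline median of 0.351 was taken as the carry-over share, and 23 of the 27 markers had a lower ratio in CNO than in saline.

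**Figure D1:**
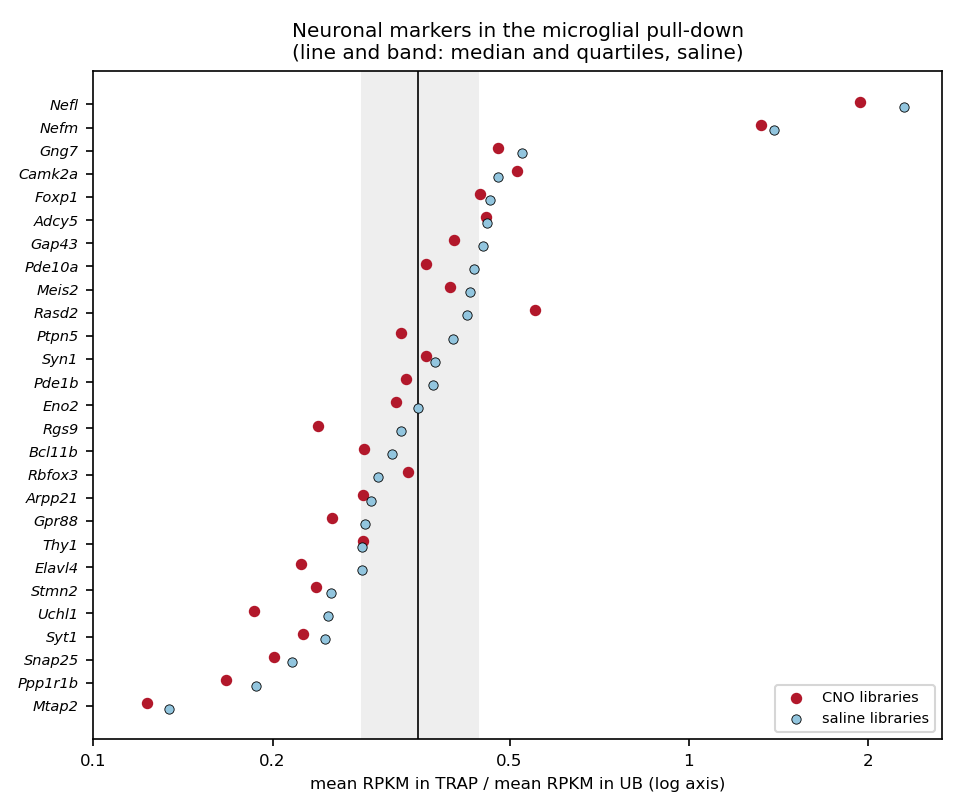
Ratio of mean RPKM in TRAP to mean RPKM in UB (log axis) for 27 neuronal markers, in CNO libraries (red) and saline libraries (blue), with the saline median of 0.351 (line) and its quartiles of 0.282 and 0.443 (band). Most markers sit within or near the band, Mtap2 lies lowest at 0.134 and Nefl highest at 2.30 in saline.

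The activation response was measured on 2 scales. The difference of changes is the log2 change in TRAP (CNO minus saline) minus that in UB, on log2(RPKM + 1). The gain beyond carry-over is the RPKM gained in TRAP minus 0.351 times the RPKM gained in UB. On the first scale equal fold changes give about 0 for genes well above 1 RPKM in both fractions. For lower genes the added 1 shrinks the change, so equal fold changes can give a value other than 0. On the second scale a response carried over at a share of exactly 0.351 gives 0. Single neuronal markers had shares from 0.134 to 2.30 in saline, so a value other than 0 can also come from carry-over at another share. Of 11677 genes with a mean of at least 1 RPKM, none had a larger change in TRAP at an adjusted p under 0.05 (limma, Benjamini-Hochberg over all genes, 0%), and 1 had a smaller one, Plxdc2 (0.00856%). At an unadjusted p under 0.05, 244 genes were higher (2.09%) and 179 lower (1.53%). Voom on the recovered reads, at an adjusted p under 0.05, also called 0 higher and 1 lower. No gene passed on the RPKM scale either (limma, 0%), where 244 were higher (2.09%) and 248 lower (2.12%) at an unadjusted p under 0.05. The median over all genes was 0.02 for the difference, with 95% of genes between -0.72 and 0.74 and a median SE of 0.32. Without TRAP CNO library 1, the shallowest pull-down, 8 genes passed on the RPKM scale, 7 higher (Ccl3, Ccl4, Sgk1, Btg2, Rcan1, Tsc22d3 and Cebpa) and 1 lower (Ndufaf3). Without TRAP saline library 2 the count was 2, and without TRAP saline library 3 it was 1, with none of those 8 genes among them. Each of the 7 higher genes had its lowest TRAP CNO value in library 1, so leaving that library out raises their gain by construction.

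Within each fraction alone, 7 genes rose in TRAP (0.0599% of those tested) and 3 fell (0.0257%), against 19 that rose in UB (0.163%) and 0 that fell (limma, adjusted p under 0.05). At an unadjusted p under 0.05, 256 genes were lower in UB (2.19%). Voom on the recovered reads, at an adjusted p under 0.05, called 68 higher and 224 lower in TRAP. In UB it called 31 higher and 2 lower. With no filter on low values, limma called 3 higher and 4 lower in UB. Both limma totals rest on single libraries. The TRAP total of 10 became 0 without TRAP CNO library 3 and 56 without TRAP CNO library 1 or TRAP saline library 2. The UB total of 19 became 2 without UB saline library 1 or 3 and 35 without UB CNO library 1. The 7 in TRAP were Ccl3 and Ccl4, the early transcription factors Egr1, Nr4a1 and Fosb, the synaptic regulator Arc, and Inhba, a subunit of activin. Of these, Egr1, Nr4a1, Fosb and Inhba rose in UB as well. Of the 19 genes that rose in UB, 4 had a positive difference of changes, and their median change was 1.37 in TRAP and 2.09 in UB on the log2 scale. Those sets were picked by their change within a fraction, so their differences are a description.

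**Figure D2:**
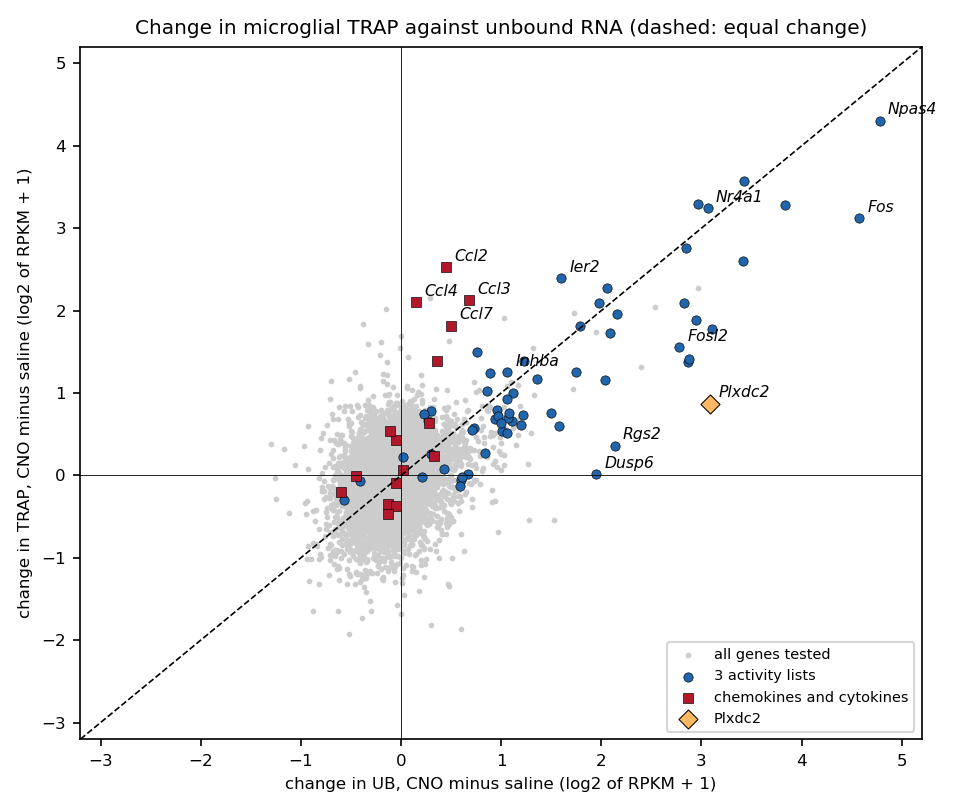
Change in TRAP against change in UB (CNO minus saline, log2 of RPKM + 1) for 11677 genes (grey), the 61 measured activity genes (blue circles), the 16 measured chemokines and cytokines (red squares) and Plxdc2 (orange diamond), with equal change dashed. Activity genes spread along and below the dashed line, Ccl2, Ccl3, Ccl4 and Ccl7 lie between 0.15 and 0.68 in UB and between 1.82 and 2.53 in TRAP.

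Most activity-regulated genes had positive changes, 55 of 61 in TRAP and 59 of 61 in UB, with the lower median in TRAP on the log2 scale. Of these 61 measured members of 3 lists (transcription factors, feedback regulators and neuronal effectors), 15 passed in UB and 5 in TRAP, and none passed for the difference (limma, adjusted p under 0.05). The median change was 0.79 in TRAP and 1.12 in UB, against -0.03 and -0.07 over all genes. A positive difference of changes was found in 18 of 61, against 53% of all genes, with a median of -0.32. At an unadjusted p under 0.05, 4 of them had a smaller change in TRAP, Fosl2, Trib1, Dusp6 and Rgs2, against 1.53% of all genes. Every CNO library stood above every saline library for 30 of the 61 in TRAP, against 3.98% of all genes, and for 50 of the 61 in UB, against 4.86% of all genes. Leaving out 1 library at a time moved the count of positive differences between 12 and 26, and the median difference to -0.09 without UB CNO library 2, -0.17 without TRAP CNO library 1 and -0.48 without UB CNO library 1. The count was 23 when the recovered reads were fitted with voom. On the RPKM scale the same genes split more evenly: 33 of 61 gained more than the carried-over share, against 47.6% of all genes, with a median of 0.439 RPKM. That count was 45 with the lower quartile of the marker ratios as the share and 27 with the upper one, and 23 with the Npas4 ratio and 21 with the Plxdc2 ratio of gains, so it turns on the share chosen. Leaving out 1 library gave 25 to 47, and the median was -0.887 RPKM without UB CNO library 1, -0.182 without TRAP CNO library 2, 2.90 without TRAP CNO library 1, 2.13 without UB CNO library 2, 1.95 without TRAP saline library 3 and 0.240 to 0.750 without any other. No member had an unadjusted p under 0.05 on both scales with both values above 0, against 144 of all genes (1.23%).

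Npas4, the activity factor most typical of neurons, had 7.69, 150 and 133 RPKM in TRAP CNO, against 0.710, 2.18 and 3.20 in TRAP saline. The unbound fraction had 16.5, 375 and 193 RPKM with CNO, against 2.25, 4.92 and 2.20 with saline. The groups did not overlap in either fraction, and CNO library 1 was the lowest of its group in both. Its gain was 95.1 RPKM in TRAP and 192 in UB, a ratio of 0.496, which lies above the upper quartile of the markers. The gain beyond carry-over was 27.7 ± 46.4 RPKM (SE) and the difference of changes -0.48 ± 1.46, both well within their errors (limma, adjusted p = 0.999 and 1.00).

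Nr4a1, an orphan nuclear receptor, had 19.9, 71.6 and 76.1 RPKM in TRAP CNO, against 3.80, 5.28 and 3.53 in TRAP saline. Unbound RNA held 50.4, 206 and 124 RPKM with CNO, against 9.88, 21.6 and 8.26 with saline. Every CNO library stood above every saline library in both fractions, and the gene rose in both, by 3.25 in TRAP and 3.06 in UB on the log2 scale (limma, adjusted p = 0.0409 and 0.0304). Its difference of changes was 0.19 ± 0.72, with a 95% interval from -1.36 to 1.73, and its gain beyond carry-over was 11.8 ± 19.5 RPKM. Egr1, a zinc-finger factor, gained 135 RPKM in TRAP and 408 in UB, a ratio of 0.331, and Fosb gained 35.3 and 113 RPKM, a ratio of 0.312. Both ratios sit beside the carry-over share of 0.351.

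Fos, the founding member of the AP-1 family, had a low ratio. It had 3.23, 29.6 and 23.4 RPKM in TRAP CNO, against 0.0430, 2.13 and 0.473 in TRAP saline. Its UB values were 20.8, 192 and 101 RPKM with CNO, against 1.69, 5.01 and 0.967 with saline. The gain in TRAP was 0.175 of that in UB, below the lower quartile of the markers, and the gain beyond carry-over was -18.0 ± 15.4 RPKM (limma, adjusted p = 0.999). The difference of changes of -1.45 ± 1.10 did not pass, and it was -0.57 with a pseudocount of 0.1 and 1.28 with voom on the recovered reads. Egr3, another zinc-finger factor, was the only one of the 61 whose gain was below carry-over at an unadjusted p under 0.05, -7.58 ± 3.08 RPKM (limma, adjusted p = 0.999). Fosl2 and Bdnf, an AP-1 factor and a neurotrophin, had ratios of 0.322 and 0.263.

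Only 3 of the 61 had a gain beyond carry-over at an unadjusted p under 0.05, Ier5, Ier2 and Inhba, against 2.09% of all genes. Ier5, an immediate early gene linked to the heat shock response, had 103, 126 and 148 RPKM in TRAP CNO, against 89.3, 74.2 and 63.1 in TRAP saline. UB libraries gave 58.9, 53.7 and 62.4 RPKM with CNO, against 21.5, 31.6 and 36.9 with saline. The CNO libraries lay above the saline libraries in both fractions, and the gain beyond carry-over was 40.0 ± 13.9 RPKM (limma, adjusted p = 0.999). Ier2, a small nuclear early protein, gained 9.05 RPKM in TRAP and 4.88 in UB, which put it 7.34 ± 3.23 RPKM beyond carry-over (limma, adjusted p = 0.999). Inhba had 33.2, 33.8 and 30.6 RPKM in TRAP CNO, against 14.3, 10.4 and 15 in TRAP saline. The unbound fraction had 50.2, 60.5 and 39.7 RPKM with CNO, against 23.5, 25.1 and 21.2 with saline. Its groups were apart in both fractions, and the gain beyond carry-over was 9.85 ± 3.22 RPKM (limma, adjusted p = 0.999), with a difference of changes of 0.19 ± 0.25. Inhba overlaps an antisense gene, Gm48444, and the strand used in counting is not given in the sources used here.

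Btg2, an antiproliferative early gene, had 18.6, 64.2 and 85.5 RPKM in TRAP CNO, against 15.5, 14 and 10.2 in TRAP saline. Its UB values were 4.92, 46.3 and 25.6 RPKM with CNO, against 1.81, 1.11 and 0.968 with saline. Both groups of CNO libraries stood above their saline libraries, and the scales pointed apart: the gain beyond carry-over was 34.3 ± 16.4 RPKM, while the difference of changes was -1.33 ± 0.86 (limma, adjusted p = 0.999 and 1.00). Without TRAP CNO library 1, which held its lowest TRAP CNO value, the gain beyond carry-over was 53.1 ± 7.41 RPKM (limma, adjusted p = 0.0307). Zfp36, the mRNA-destabilising protein tristetraprolin and named after its values were seen, had 98.9, 184 and 692 RPKM in TRAP CNO, against 90.6, 68.7 and 87.4 in TRAP saline. In UB it stayed between 2.48 and 9.79 RPKM with CNO and between 2.65 and 3.48 with saline. A single library held most of its gain of 243 RPKM, and the gain beyond carry-over, 242 ± 148 RPKM, did not pass (limma, adjusted p = 0.999).

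Among feedback regulators, Dusp6 and Rgs2 were already abundant in the pull-down with saline, and their smaller change there passed only where a UB library was left out. Dusp6, a phosphatase that switches off ERK, had 108, 91.1 and 79.9 RPKM in TRAP CNO, against 96.1, 124 and 63.4 in TRAP saline. The UB levels were 15.9, 49.8 and 46.6 RPKM with CNO, against 7.16, 10.1 and 6.78 with saline, and the gene rose in UB by 1.95 on the log2 scale (limma, adjusted p = 0.0342). Its TRAP groups overlapped and its UB groups did not, and the difference of changes was -1.93 ± 0.49 (limma, adjusted p = 1.00). Rgs2, which shortens G-protein signalling, had 324, 530 and 450 RPKM in TRAP CNO, against 421, 323 and 267 in TRAP saline. The unbound fraction had 153, 772 and 415 RPKM with CNO, against 86.7, 79.3 and 82.1 with saline, and the difference of changes was -1.77 ± 0.57 (limma, adjusted p = 1.00). Without UB CNO library 1, the shallowest of the 12, both differences passed, at -2.44 for Dusp6 and -2.40 for Rgs2 (limma, adjusted p = 0.0245 and 0.0409). On the RPKM scale both lay below carry-over within their errors, by -11.7 ± 16.8 for Dusp6 and -30.4 ± 83.6 for Rgs2.

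Of the 61 activity genes, 56 gained in both fractions, and the ratio of the TRAP gain to the UB gain ran from 0.0202 to 67.8 with a median of 0.434. That median lies inside the quartiles of the neuronal markers, 0.282 and 0.443. There were 26 genes above the upper quartile and 12 below the lower one, and 4 above every marker. Among the 39 genes that gained at least 5 RPKM in UB, where the ratio rests on a larger gain, 0 lay above every marker and 9 lay above Npas4. Among them, the highest ratios of the activity genes named here were those of Ier5 and Btg2, at 1.77 and 1.76, both below the neurofilament gene Nefl at 2.30.

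**Figure D3:**
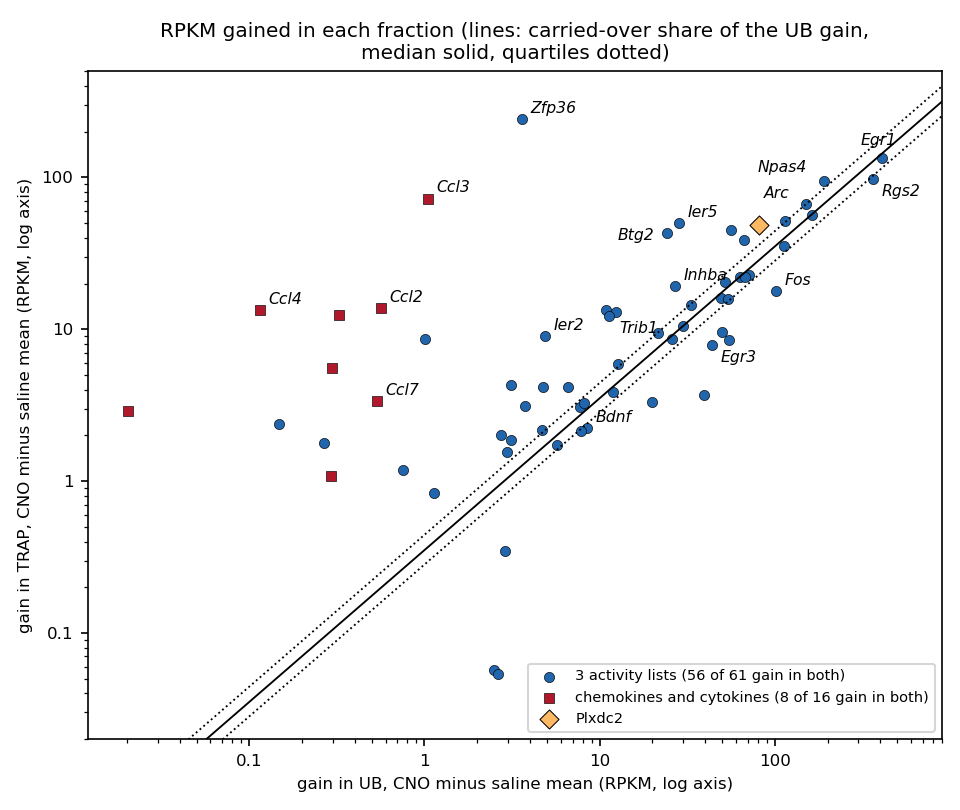
RPKM gained in TRAP against RPKM gained in UB (CNO minus saline means, log axes) for genes that gained in both, with the carried-over share of the UB gain drawn as lines (median solid, quartiles dotted). Activity genes (blue circles) with large UB gains scatter around the lines, and Ccl2, Ccl3, Ccl4 and Ccl7 (red squares) lie far above them.

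The Npas4 gain of the same library was used as a further yardstick, which needs no carry-over share. For each CNO library, a gene's gain over the saline mean of its fraction was divided by that of Npas4. All 3 TRAP libraries lay above all 3 UB libraries for 4 of 61 activity genes (6.56%), against 945 of 11677 genes (8.09%), and 4 activity genes lay wholly below. Btg2 lay above, at 0.943, 0.344 and 0.550 in TRAP CNO and 0.271, 0.121 and 0.128 in UB CNO. Fos lay below, at 0.414, 0.194 and 0.171 in TRAP CNO and 1.37, 0.509 and 0.517 in UB CNO. Arc overlapped, with 3.66, 0.582 and 0.701 in TRAP CNO and 3.5, 0.604 and 0.941 in UB CNO. With 3 values against 3 the smallest two-sided exact permutation p is 0.1, so no test is given.

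The chemokines had little signal in the unbound RNA. Of 16 measured chemokines and cytokines, 2 rose in TRAP and 0 in UB (limma, adjusted p under 0.05), and 11 had a positive difference of changes, against 53% of all genes, with a median of 0.42. On both scales at once, 10 were above 0, and 4 had an unadjusted p under 0.05 on each, Ccl2, Ccl3, Ccl4 and Ccl7, against 144 of 11677 genes (1.23%). The list and these 4 genes were chosen with earlier results of these data known, so the counts are a description. With little signal in UB, both scales rest largely on the same change in TRAP. Leaving out 1 library at a time, the count of positive differences ran from 9 to 14, and the median was 0.10 without TRAP CNO library 2, 0.15 without TRAP saline library 3 and 0.32 to 0.56 without any other. None of the 16 passed for the difference or for the gain beyond carry-over when all 12 libraries were fitted (limma, adjusted p under 0.05).

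Ccl3, also called MIP-1 alpha (chr11:83647844-83649355, reverse strand, GRCm38), had 51.5, 106 and 118 RPKM in TRAP CNO, against 23.8, 17 and 16.9 in TRAP saline. In UB it had 0.311, 1.68 and 2.51 RPKM with CNO, against 0.263, 0.396 and 0.715 with saline. The TRAP groups did not overlap and the UB groups did. It rose in TRAP by 2.13 on the log2 scale (limma, adjusted p = 0.0409, and 0.00483 to 0.166 over the settings tried). The carried-over share of its UB gain was 0.367 RPKM of the 72.6 RPKM gained in TRAP, which left a gain beyond carry-over of 72.2 ± 16.8 RPKM (limma, adjusted p = 0.999). Without TRAP CNO library 1, which held its lowest TRAP CNO value, that gain was 92.4 ± 5.15 RPKM (limma, adjusted p = 2.00e-05). That gain passed under no other setting tried. The difference of changes was 1.45 ± 0.49 (limma, adjusted p = 1.00), and it differed between settings: it was 0.94 with a pseudocount of 0.1 and 0.05 with voom on the recovered reads. Behind the UB values stood 3, 111 and 193 reads with CNO and 16, 9 and 13 with saline.

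Ccl4, also called MIP-1 beta (chr11:83662584-83664683, forward strand, GRCm38), lies close to Ccl3. It had 11, 18.7 and 19.6 RPKM in TRAP CNO, against 4.95, 2.04 and 2.40 in TRAP saline. UB libraries gave 0.241, 0.0528 and 0.0906 RPKM with CNO, against 0.0382, 0 and 0 with saline, from 2, 3 and 6 reads with CNO and 2, 0 and 0 with saline. The TRAP groups were apart, and UB held too few reads to give a fold change. The gene rose in TRAP by 2.1 on the log2 scale (limma, adjusted p = 0.0226, and 0.00297 to 0.109 over the settings tried), and the gain beyond carry-over was 13.3 ± 2.54 RPKM (limma, adjusted p = 0.855). Without TRAP CNO library 1, which held its lowest TRAP CNO value, it was 16 ± 1.31 RPKM (limma, adjusted p = 0.00057). The difference of changes was 1.95 ± 0.40 (limma, adjusted p = 0.576), 1.47 with a pseudocount of 0.1 and 0.73 with voom on the recovered reads.

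Ccl2 and Ccl7, monocyte chemoattractants that also lie close together on chromosome 11, were lower and more scattered. Ccl2 had 4.22, 27.9 and 14.6 RPKM in TRAP CNO, against 3.96, 0.962 and 0.263 in TRAP saline, so that 1 library of each group nearly met. In UB it reached at most 1.60 RPKM with CNO and 0.444 with saline. Its gain beyond carry-over was 13.6 ± 5.62 RPKM (limma, adjusted p = 0.999). Ccl7 had 2.69, 6.57 and 1.26 RPKM in TRAP CNO, against 0.303, 0.0526 and 0.0534 in TRAP saline, and its gain beyond carry-over was 3.18 ± 1.33 RPKM (limma, adjusted p = 0.999). Its UB values were 0, 1.44 and 0.211 RPKM with CNO, against 0, 0.0421 and 0 with saline. Behind them stood 0, 99 and 17 reads with CNO and 0, 1 and 0 with saline, too few for a fold change. At such levels its difference of changes, 1.32 ± 0.56, depends on the pseudocount of 1. Neither gene passed in TRAP alone (limma, adjusted p = 0.117 and 0.111). Ccl2 overlaps a gene on the other strand, Gm17268.

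Markers of other cells that can make chemokines were measured beside them. Perivascular macrophage markers, 8 genes summed, had 42.3 to 51.9 RPKM in TRAP CNO and 24.4 to 61.9 in TRAP saline. Peripheral blood markers, 10 genes summed, had 2.48 to 4.94 RPKM in TRAP CNO and 3.69 to 5.15 in TRAP saline, and S100a8, Cd79a and Nkg7 were at 0 in every TRAP library. The part of these cells in the chemokine values was not tested. In bulk RNA, fewer cells of a type and less RNA per cell cannot be told apart.

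**Figure D4:**
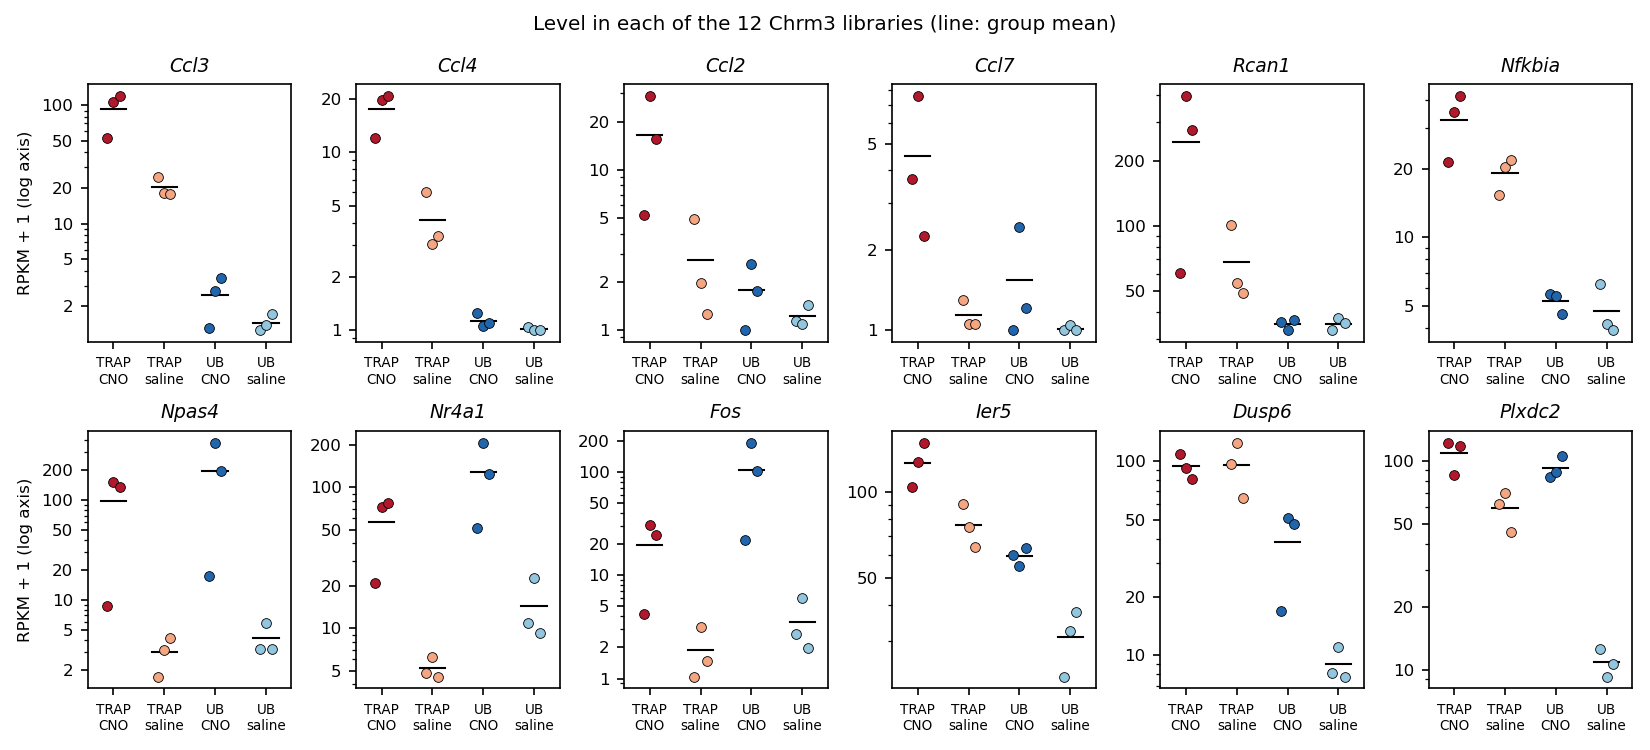
Level of 12 named genes in each of the 12 libraries (RPKM + 1, log axis), by group from left to right TRAP CNO, TRAP saline, UB CNO and UB saline, each point a library and each line a group mean. Ccl3 and Ccl4 separate CNO from saline in TRAP and stay near the floor in UB, and Plxdc2 in UB stands between 82.1 and 104 RPKM with CNO against 8.29 to 11.6 with saline.

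The NF-kB list had smaller values. Of 12 measured subunits and feedback genes, 10 had a gain beyond carry-over above 0, against 47.6% of all genes, with a median of 1.53 RPKM, and 2 were higher at an unadjusted p under 0.05, against 2.09% of all genes. A positive difference of changes was found in 8 of 12, against 53% of all genes, with a median of 0.20, and in 5 of 12 with voom on the recovered reads. The count ran from 6 to 9 when 1 library was left out, and the median was 0.05 without TRAP CNO library 1, 0.06 without UB saline library 2 and 0.14 to 0.33 without any other. No member passed in TRAP, in UB or for the difference (limma, adjusted p under 0.05). Nfkbia, the inhibitor that NF-kB itself switches on, had 20.3, 34.4 and 40.5 RPKM in TRAP CNO, against 14.3, 19.3 and 20.8 in TRAP saline. UB showed 4.63, 4.52 and 3.61 RPKM with CNO, against 5.22, 3.16 and 2.91 with saline. The groups overlapped in both fractions, and the gain beyond carry-over was 13.5 ± 5.41 RPKM (limma, adjusted p = 0.999). Cd83, an activation marker of antigen-presenting cells, had 19.6, 23.3 and 14.9 RPKM in TRAP CNO, against 13.9, 14 and 12.9 in TRAP saline, and it was the member with an unadjusted p under 0.05 on both scales. Its UB values were 1.74, 1.07 and 1.83 RPKM with CNO, against 2.00, 2.15 and 2.45 with saline. The log2 change of Cd83 was 0.45 in TRAP and -0.34 in UB, so its difference includes a fall in UB. Nfkbie, a further inhibitor, had 11.4, 216 and 9.61 RPKM in TRAP CNO, against 6.23, 8.17 and 5.46 in TRAP saline, so 1 library carried nearly all of its gain.

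Heat shock genes had a gain beyond carry-over above 0 in 10 of 11 measured members, against 47.6% of all genes. Their median was 16.9 RPKM (-0.0870 over all genes), and 3 were higher at an unadjusted p under 0.05, against 2.09% of all genes. None passed for the difference or for the gain (limma, adjusted p under 0.05). At the same fold change a gene with a higher level gains more RPKM, and these medians are not matched for level. Hspa8, the constitutive chaperone HSC70, had 172, 214 and 146 RPKM in TRAP CNO, against 99.9, 141 and 84.1 in TRAP saline. Its UB values were 157, 195 and 148 RPKM with CNO, against 108, 135 and 120 with saline. CNO libraries lay above saline libraries in both fractions, and the gain beyond carry-over was 53.3 ± 24.1 RPKM (limma, adjusted p = 0.999). Dnaja1, a co-chaperone of the HSP70 proteins, and Hspd1, the mitochondrial chaperonin HSP60, had gains beyond carry-over of 17.1 ± 6.82 and 16.9 ± 7.61 RPKM. The difference of changes was positive in 9 of 11 heat shock genes, against 53% of all genes, with a median of 0.17. Leaving out 1 library gave 7 to 10 positive, with a median of 0.09 without TRAP saline library 1, 0.11 without TRAP saline library 3 and 0.34 without TRAP saline library 2.

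Genes that respond to glucocorticoids, the stress hormones, were looked at next. Of 15 measured members, 11 had a gain beyond carry-over above 0, against 47.6% of all genes, with a median of 8.58 RPKM. The difference of changes was positive in 8 of 15, against 53% of all genes, with a median of 0.06. None passed on either scale (limma, adjusted p under 0.05). Tsc22d3, the glucocorticoid-induced leucine zipper, had 35.8, 159 and 123 RPKM in TRAP CNO, against 60.2, 35.5 and 37.3 in TRAP saline. Sgk1, a serum- and glucocorticoid-regulated kinase, had 44.1, 131 and 131 RPKM in TRAP CNO, against 67.5, 47.7 and 61.1 in TRAP saline. In both genes TRAP CNO library 1 lay below at least 1 saline library while the other two lay above all of them. The gains beyond carry-over were 59.1 ± 30.4 RPKM for Tsc22d3 and 42.5 ± 24.4 RPKM for Sgk1, and without TRAP CNO library 1 they were 94.2 and 71.4 RPKM (limma, adjusted p = 0.0307 and 0.0163). Ddit4, an inhibitor of mTOR, had 16.6, 50.4 and 135 RPKM in TRAP CNO, against 21.2, 10.5 and 15.6 in TRAP saline, and its difference of changes was 1.82 ± 0.70 (limma, adjusted p = 1.00). Mt1, a metallothionein, had 62.8, 47.8 and 54.1 RPKM in TRAP CNO, against 114, 79.4 and 87.1 in TRAP saline, and a gain beyond carry-over of -30.8 ± 11.1 RPKM (limma, adjusted p = 0.999).

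Rcan1 and Cebpa, named after their values were seen, had their lowest TRAP CNO value in library 1. Rcan1, a calcineurin regulator (chr16:92391953-92470867, reverse strand, GRCm38), had 59.4, 395 and 276 RPKM in TRAP CNO, against 100, 53.4 and 48.0 in TRAP saline. The unbound fraction had 35.0, 32.1 and 35.7 RPKM with CNO, against 32.0, 36.6 and 34.7 with saline. Its UB groups were level, so almost nothing of its TRAP gain of 176 RPKM was matched in the unbound RNA, and the gain beyond carry-over was 177 ± 80.2 RPKM (limma, adjusted p = 0.999). Without TRAP CNO library 1, the only one of the 3 below a saline library, it was 269 ± 36.1 RPKM (limma, adjusted p = 0.0307). Rcan1 overlaps an antisense gene, Gm46555. Cebpa, a myeloid transcription factor, had 57.0, 86.1 and 84.3 RPKM in TRAP CNO, against 55.4, 46.7 and 49.4 in TRAP saline, and at most 1.98 RPKM in any UB library. Its gain beyond carry-over was 25.1 ± 8.82 RPKM (limma, adjusted p = 0.999), and 34.6 ± 4.65 RPKM without TRAP CNO library 1 (limma, adjusted p = 0.0307).

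**Figure D5:**
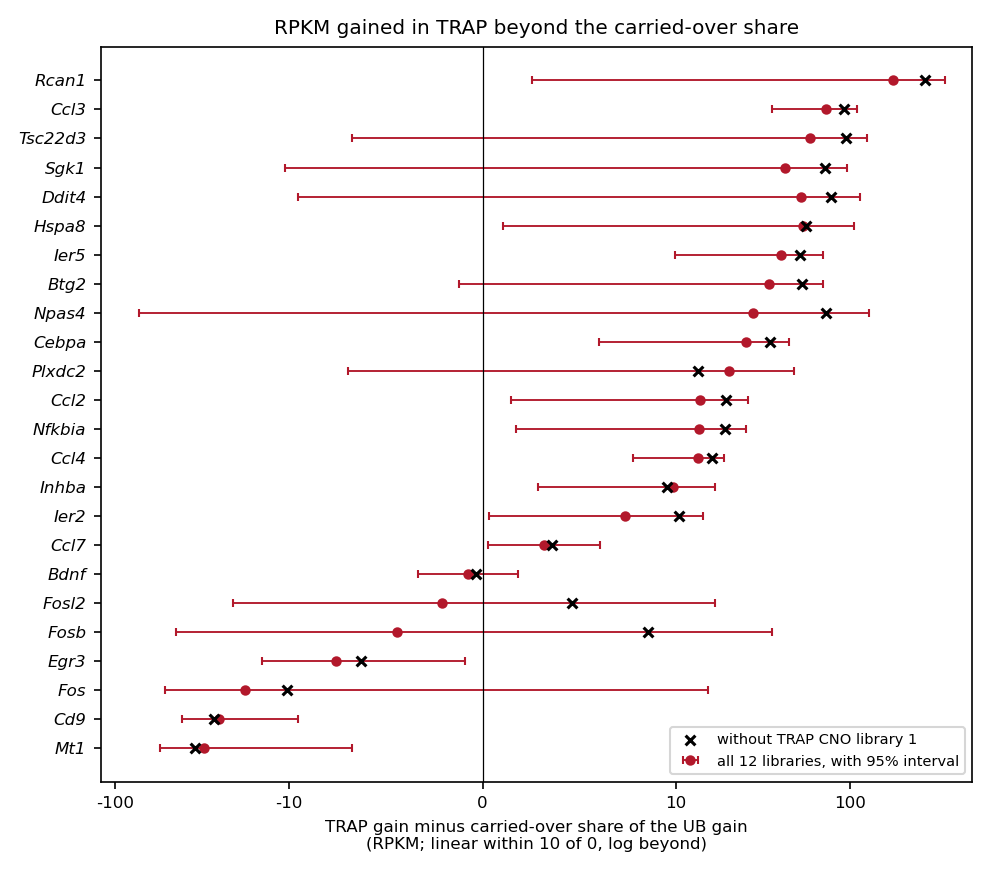
RPKM gained in TRAP minus the carried-over share of the RPKM gained in UB for 24 named genes, with 95% intervals over all 12 libraries (red) and the value without TRAP CNO library 1 (crosses); the axis is linear within 10 of 0 and logarithmic beyond. The interval of Ccl3 runs from 35.7 to 109 RPKM and that of Npas4 from -73.0 to 128 RPKM.

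No gene of resting microglia passed in either fraction. This holds for 25 measured homeostatic genes (limma, adjusted p under 0.05), with a median change of -0.03 in TRAP and -0.31 in UB. P2ry12, a purinergic receptor that steers microglial processes, had 735, 603 and 564 RPKM in TRAP CNO, against 731, 698 and 443 in TRAP saline. The unbound fraction had 3.44, 5.47 and 5.65 RPKM with CNO, against 7.67, 5.88 and 5.53 with saline. The difference of changes was above 0 in 22 of the 25, against 53% of all genes, with a median of 0.28. Without TRAP saline library 3 it was above 0 in 15 of 25, with a median of 0.09, and without any other library in 18 to 24, with a median of 0.19 to 0.37. In UB, 11 of the 25 had every UB CNO library below every UB saline library, against 12.8% of all genes. The change was above 0 for 8 of 25 in TRAP and for 2 of 25 in UB. The summed microglial markers in UB were also lower with CNO, as given above, and the part of this in the differences was not tested. On the RPKM scale 8 of 25 were beyond the carried-over share, a count of 1 without TRAP saline library 3, of 4 without TRAP CNO library 1 and of 12 to 15 without any other TRAP library. Csf1r, the receptor that keeps microglia alive, had the only unadjusted p under 0.05 among them, with a difference of changes of 0.66 ± 0.28 (limma, adjusted p = 1.00). Its UB values were 1.20, 2.34 and 1.47 RPKM with CNO, against 2.39, 2.87 and 3.53 with saline. Tmem119, Entpd1 and Cx3cr1 had differences of 0.55 ± 0.26, 0.31 ± 0.30 and -0.05 ± 0.25.

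Of 14 measured disease-associated genes, 4 had a gain beyond carry-over above 0, against 47.6% of all genes, with a median of -1.24 RPKM, and 2 lay below carry-over at an unadjusted p under 0.05, against 2.12% of all genes. Those were Cd9, a tetraspanin, and Cst7, the protease inhibitor cystatin F. Cd9 had 55.6, 61.3 and 41.0 RPKM in TRAP CNO, against 81.9, 83.3 and 70.3 in TRAP saline, and a gain beyond carry-over of -25.4 ± 7.30 RPKM (limma, adjusted p = 0.999). Cst7 had 7.98, 8 and 6.52 RPKM in TRAP CNO, against 10.1, 13.3 and 10.8 in TRAP saline, and -3.95 ± 1.35 RPKM (limma, adjusted p = 0.999). The TRAP groups of both genes did not overlap, which 5.4% of all genes share in that direction. Purine signalling genes had a median difference of changes of 0.10 over 11 members and a median gain beyond carry-over of -0.0955 RPKM, with 5 of 11 above 0. Interferon response genes had a median difference of changes of -0.05 over 10 members and a median gain beyond carry-over of 0.179 RPKM, with 6 of 10 above 0. Over all genes those medians were 0.02 and -0.0870 RPKM.

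Plxdc2, a plexin domain-containing receptor (chr2:16356304-16755839, forward strand, GRCm38), was the single gene that passed the test of the difference. It had 121, 84.5 and 116 RPKM in TRAP CNO, against 61.2, 69.4 and 44.8 in TRAP saline. UB libraries gave 82.1, 87.4 and 104 RPKM with CNO, against 11.6, 8.29 and 9.70 with saline. The groups were apart in both fractions. The change was 0.87 in TRAP and 3.09 in UB on the log2 scale (limma, adjusted p = 0.111 and 1.17e-06), and the difference of changes was -2.22 ± 0.27 (limma, adjusted p = 0.00884). The adjusted p ran from 0.000314 to 0.138 over the settings tried, and was 0.0513 without TRAP saline library 1 and 0.0514 without UB CNO library 3. In RPKM the gene gained 48.8 in TRAP and 81.4 in UB, a ratio of 0.599, and the gain beyond carry-over was 20.2 ± 12.5 RPKM (limma, adjusted p = 0.999). The smaller log2 change in TRAP thus stood on a saline level of 58.5 RPKM there, against 9.88 RPKM in UB. In the UB CNO libraries, in the same order, Npas4 had 16.5, 375 and 193 RPKM. Plxdc2 thus did not follow the level of Npas4 across them, and the reason was not tested.

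Chrm3, the gene of the receptor, had 2.57, 1.52 and 3.87 RPKM in TRAP CNO, against 0.566, 0.778 and 0.637 in TRAP saline. The unbound fraction had 6.6, 6.07 and 7.20 RPKM with CNO, against 2.42, 3.54 and 2.12 with saline. CNO libraries lay above saline libraries in both fractions, and neither change passed (limma, adjusted p = 0.126 and 0.191). Whether reads of the receptor transgene are counted under this gene is not given in the sources used here. The ratio of its gains was 0.507 and the difference of changes 0.03 ± 0.35.

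Outside the lists, Gm11627 had a smaller unadjusted p for a positive difference of changes than any chemokine (limma, 0.000114, against 0.000197 for Ccl4). For the change in TRAP alone and for the gain beyond carry-over, Ccl4 had the smaller unadjusted p. Gm11627 had 1.98, 2.47 and 1.44 RPKM in TRAP CNO, against 0.602, 0.399 and 0.0369 in TRAP saline. In UB it had 2.19, 2.64 and 3.80 RPKM with CNO, against 4.30, 6.16 and 5.23 with saline. Its CNO libraries lay above the saline libraries in TRAP and below them in UB, and its difference of changes was 1.84 ± 0.35 (limma, adjusted p = 0.445). Acaa2, a mitochondrial thiolase of fatty acid oxidation, and Axin1, a scaffold of the beta-catenin destruction complex, had differences of 1.53 ± 0.34 and 1.5 ± 0.33 (limma, adjusted p = 0.898 each). The change of Acaa2 was 0.59 in TRAP, where its groups overlapped, and -0.93 in UB. That of Axin1 was 1.09 in TRAP and -0.40 in UB. Both genes had every UB CNO library below every UB saline library, as 12.8% of all genes did. Armc3 had 8.30, 11.7 and 6.20 RPKM in TRAP CNO, against 2.98, 3.70 and 2.59 in TRAP saline, and at most 0.209 RPKM in UB. Its gain beyond carry-over was 5.68 ± 1.52 RPKM (limma, adjusted p = 0.999). Maea, Hnmt and Vprbp, a ubiquitin ligase subunit, the histamine-degrading methyltransferase and a receptor of a ubiquitin ligase, had gains beyond carry-over of 16.2 ± 3.93, 11.3 ± 2.96 and 8.70 ± 2.02 RPKM. Each of these 3 had every TRAP CNO library above every TRAP saline library, as 3.98% of all genes did.

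In the other direction, Paqr9, a membrane progesterone receptor, had 7.25, 7.73 and 6.58 RPKM in TRAP CNO, against 13.4, 14.9 and 18.8 in TRAP saline. UB libraries gave 23.9, 24.4 and 26.8 RPKM with CNO, against 21.3, 24.8 and 17.1 with saline. It fell in TRAP by 1.02 on the log2 scale (limma, adjusted p = 0.0463), and the difference of changes of -1.27 ± 0.24 did not pass (limma, adjusted p = 0.445). Coq10b, a coenzyme Q binding protein, rose in UB by 1.26 (limma, adjusted p = 0.0304), where it had 20.3, 36.9 and 27.5 RPKM with CNO, against 11.1, 11.2 and 10.3 with saline. In TRAP it had 10.1, 14.9 and 11.3 RPKM with CNO, against 11.7, 10.3 and 10.3 with saline, a gain of 0.0781 of that in UB. Its difference of changes was -1.12 ± 0.29 (limma, adjusted p = 1.00).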

How the data were processed

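RNA was sequenced from 12 libraries of Chrm3 mice, TRAP and unbound, with CNO or saline (3 a group). The deposited values are RPKM, made by the authors; TopHat2 2.1.0, HTSeq 0.6.0, bcl2fastq, DESeq2 and the build mm9 are listed, with no roles, per the submitters' processing notes. Gene lengths, annotation and strand are not given in the sources used here. Libraries were read with 75-cycle single reads on a NextSeq 500 after NuGEN Ovation V2 amplification, per the labels' protocols, with no molecular identifiers, so that reads are not independent molecules. Of 22707 lines, 147 hold no values. Whole reads came back from the RPKM steps for 18090 of 18090 genes above 0 in 2 or more libraries (100%, within 0.001 reads). Replicates differed by far more than sampling noise. Columns were joined to groups by their headings.

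Genes with a mean of at least 1 RPKM (11677) were fitted with limma 3.58.1 in R 4.3.3 (eBayes with trend, 8 residual degrees of freedom) on log2(RPKM + 1), which understates changes of low genes. The gain beyond carry-over was fitted on RPKM with the UB columns multiplied by the share and each gene scaled by its mean; its error does not cover that of the share. Tests were two-sided, with Benjamini-Hochberg adjustment over all genes and a threshold of 0.05, and checked on simulated data. Alternatives were other pseudocounts, filters, scalings, shares, all 20 libraries of the table, voom on the recovered reads, and leaving out each library.

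Named genes are the up to 12 with the largest or, where too few passed, the most significant values of each measure at 2 RPKM or more in the highest group, up to 5 of each list by p, and a set list; the text describes those that carry the result. The genes and lists were chosen with earlier results of these data known, and Rcan1, Cebpa, Ndufaf3 and Zfp36 once their values were known. Gene positions come from GENCODE M21 (GRCm38), matched by gene ID for 58 of 58 genes; 8 overlap a gene on the same strand and 21 one on the other, and such reads cannot be told apart.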

Additional observations from a re-analysis of the deposited data

Results flagged for a closer look

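The change of Plxdc2 differed between the fractions: the change in TRAP minus that in UB was -2.22 on the log2 scale (limma, adjusted p = 0.00884), with 0.87 in TRAP and 3.09 in UB. In RPKM it gained 48.8 in TRAP and 81.4 in UB.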

How the results depend on the processing

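No paired analysis was possible because the columns carry no replicate numbers. The counts moved most. For the difference of changes, 1 gene passed with all libraries and 0 with no filter on low values; leaving out a library gave 0 to 3, and no alternative called a gene higher in TRAP. For the change in TRAP the count of 10 became 0 with no filter and 6 with quantile scaling within each fraction. It became 34 with all 20 libraries of the table and 292 with voom on the recovered reads, 68 higher and 224 lower. Leaving out a library gave 0 to 56: 1 without TRAP CNO library 2, 1 without TRAP saline library 1 and 2 without TRAP saline library 3. For the change in UB the count of 19 became 7 with no filter, 35 with all 20 libraries, 33 with voom and 2 to 35 when a library was left out. The gain beyond carry-over had 0 genes under every other share, scaling and filter tried and 0 to 8 when a library was left out. The carry-over share ran from 0.276 to 0.413 over other marker sets and libraries; the gain was also fitted with the marker upper quartile (0.443), the Npas4 ratio (0.496) and the Plxdc2 ratio (0.599) as the share. Plxdc2 no longer passed for the difference with no filter (-2.22, adjusted p = 0.138, limma). Among the named genes, the sign of the difference changed in 32 of 696 values that leave out a library and in 12 of 395 others, and that of the gain beyond carry-over in 28 of 696 and 16 of 404; none of these had passed. The counts of list members above 0 were tried under the same settings after seeing the data. Voom moved the median of all genes by -0.10 in UB. The UB values of Ccl4 rest on at most 6 reads in any UB library, also in those of 83.2 and 97.1 M reads. The replicate block was not run, and the cause of these shifts was not tested.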
